A study of Mus musculus with 6 samples.

Results

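Janus kinases (JAKs) and signal transducers and activators of transcription (STATs) carry cytokine signals from receptors at the cell surface to genes in the nucleus. The genes described here are the kinases Jak1, Jak2, Jak3 and Tyk2 and the transcription factors Stat3, Stat4, Stat5a, Stat5b and Stat6, chosen by name from the 8520 genes of the deposited table. All 9 were in the table. The RNA came from mature splenic natural killer (NK) cells, for which 20 mice of strain C57BL/6Ncr, aged 6 to 8 weeks, gave their spleens; the labels give no treatment. Cells negative for CD3 and positive for NK1.1 were sorted into a population with Ly49G but not Ly49C/I (Ly49G+ here, 3 libraries) and another with Ly49C/I but not Ly49G (Ly49I+ here, 3 libraries). The antibody of the second sort binds both Ly49C and Ly49I. Both Ly49G and Ly49I are inhibitory receptors that bind MHC class I. Transcription was compared between cells that bound 1 antibody or the other, so the Ly49I+ population can include cells with Ly49C. The labels call the libraries biological replicates but do not say which mice fed each one, so a p-value here reflects library-to-library spread, which may be technical.

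When a cytokine draws its receptor chains together, the JAKs bound to them phosphorylate each other, the receptor tails and the STATs that dock there. Phosphorylated STATs pair, enter the nucleus and bind DNA. In NK cells IL-15 acts through Jak1 and Jak3 on Stat5a and Stat5b, which maintain NK cell survival and maturation, and IL-12 acts through Jak2 and Tyk2 on Stat4, which drives interferon gamma. IL-21 and IL-10 act mainly on Stat3, and IL-4 on Stat6. RNA levels say nothing of phosphorylation, which sets the activity of these proteins.

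All 9 genes were expressed in both populations, and none differed between them past the threshold in the main fit, which did not pair libraries. When libraries were paired by replicate number, Tyk2 alone of the 9 passed (limma adjusted p = 0.0421). The largest difference was in Tyk2, 1.20-fold higher in Ly49I+ libraries, and the 95% intervals of all 9 log2 differences (Ly49G+ minus Ly49I+) lay between -0.47 and 0.33. Of the pathway's other genes, the receptor genes Il7r, Il21r and Il6st rose in Ly49G+ cells. Among textbook STAT targets Bcl2 and Myc were higher in Ly49G+ cells, and Gzmb, Prf1 and Tbx21 in Ly49I+ cells. The calls of Bcl2, Myc, Prf1 and Tbx21 were each lost in 5 to 8 of the 21 alternative fits.

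Stat5a and Stat5b are similar copies, and their sequence is shown because it bears on how far their RNA can be told apart. They lie beside Stat3 on chromosome 11 of GRCm38.p6, which mm10 also names. Stat5b spans 100780731 to 100859004, Stat5a 100859351 to 100885169 and Stat3 100886806 to 100939594. Only 346 bases separate Stat5b from Stat5a, and the genes point away from each other. In the coding sequences of GENCODE M21, 90.8% of the 2293 aligned bases were identical. The longest identical run was 324 bases, and its first 100 bases, the length of 1 read, stand at coding bases 571 to 670 of both genes. The 60-base window that differed most had 19 differences, shown in capitals, at coding bases 85 to 144 of both.
Shared run: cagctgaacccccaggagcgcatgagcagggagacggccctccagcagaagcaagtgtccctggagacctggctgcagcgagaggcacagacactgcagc
Stat5a: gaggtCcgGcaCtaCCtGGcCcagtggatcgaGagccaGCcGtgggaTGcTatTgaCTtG
Stat5b: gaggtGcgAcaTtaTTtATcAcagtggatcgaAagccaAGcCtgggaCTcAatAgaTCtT

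Taken alone, a read from the shared run cannot be placed on 1 of the genes, while a read from the divergent window can. Reads came in pairs, and a mate outside the run could place the pair. The windows below treat each read alone. Of all 100-base windows in protein-coding transcripts, 6.31% in Stat5a and 4.87% in Stat5b occurred in the other gene. For Stat4, on chromosome 1 from 51987106 to 52107189, 22.8% of windows also occurred in Gm28177, an overlapping transcript on the same strand. Jak3, on chromosome 8 from 71676383 to 71690577, shared 6.99% with the overlapping gene Insl3. Gm28177 and Insl3 were not analysed here. No source used here tells how shared reads were counted, and the levels of Stat4, Stat5a, Stat5b and Jak3 are uncertain for that reason. Jak1 (chromosome 4, 101151974 to 101265282), Jak2 (chromosome 19, 29251803 to 29313095), Tyk2 (chromosome 9, 21104068 to 21131393), Stat3 and Stat6 (chromosome 10, 127642955 to 127660987) shared 0 windows with other genes. In the full GENCODE M21 annotation, exons of Jak1, Tyk2 and Stat6 overlap a gene on the opposite strand. Exons of Stat3 and Stat5a overlap each other there, though the RefSeq bounds given above do not meet. The kit keeps strand, but no source used here tells whether the counting used it. Promoter sequences from RefSeq, GRCm38.p6, were matched for all 9 genes. The STAT binding motif TTCNNNGAA, which reads the same on both strands, was absent from their 12 windows of 250 bases before to 50 after a start, and was in 8.30% of all 32851 such windows.

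Levels of different genes were compared as counts per 1000000 reads (CPM) per kilobase of merged exons. Jak1, the kinase shared by most cytokine receptors of lymphocytes, stood highest at 576 ± 22.5 in Ly49G+ and 514 ± 17.3 in Ly49I+ libraries (SD, n = 3 each). It made up 81.9% ± 0.857 of the summed length-adjusted JAK level in Ly49G+ and 79.4% ± 1.96 in Ly49I+. Tyk2 held 7.71% ± 0.331 and 10.1% ± 1.56, and Jak2 7.22% ± 0.331 and 7.04% ± 0.351. Jak3, which serves only the common gamma chain, was the scarcest kinase at 3.14% ± 0.269 and 3.47% ± 0.779. Jak1 RNA thus outweighed that of its partners combined in both populations.

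Among STATs, Stat4 led at 180.0 ± 6.41 CPM per kilobase in Ly49G+ and 172 ± 13.4 in Ly49I+ libraries. That was 50.8% ± 2.04 and 46.8% ± 3.51 of the summed length-adjusted level of the 5 listed STATs. Stat6 followed with 24.3% ± 1.13 and 26.5% ± 1.49, and Stat3 with 13.6% ± 0.589 and 14.5% ± 1.12. Stat5a and Stat5b were the lowest of them, at 5.67% ± 0.283 and 5.87% ± 0.491 for Stat5a and 5.66% ± 0.243 and 6.30% ± 0.663 for Stat5b. In order of mean length-adjusted level the 9 genes ran Jak1, Stat4, Stat6, Tyk2, Stat3, Jak2, Jak3, Stat5b and Stat5a. Over the 6 libraries the ranges of Tyk2 and Stat3, of Stat3 and Jak2, of Jak3 and Stat5b and of Stat5b and Stat5a overlapped, so those neighbours were not separated beyond their spread. The other neighbours lay apart, with the mean of Jak1 3.10 times that of Stat4 and the mean of Stat4 1.92 times that of Stat6.

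**Figure D1:**
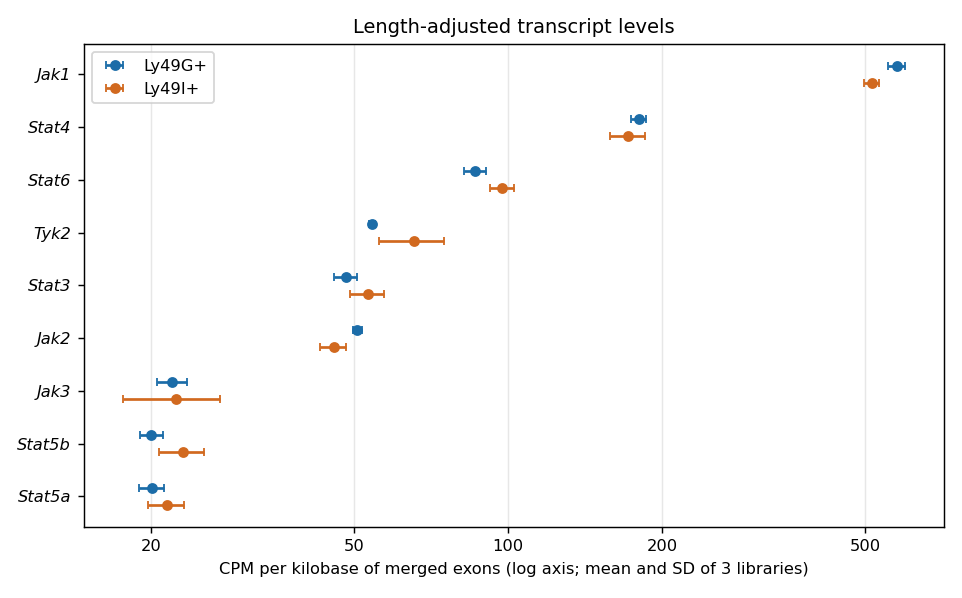
Length-adjusted levels of the 9 genes in CPM per kilobase of merged exons on a log axis. Points are means and bars SDs of 3 libraries. Jak1 stands far to the right of every other gene, and the populations lie close together for each gene.

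Each JAK and STAT value rested on 2567 to 108284 reads per library. From here levels are in CPM, with no length adjustment. For Jak1 the Ly49G+ replicates 1, 2 and 3 held 2699, 2876 and 2902 CPM, against 2577, 2564 and 2424 in Ly49I+ replicates 1, 2 and 3. Jak2, which pairs with Tyk2 at the IL-12 receptor, stood at 259, 257 and 249.7 in Ly49G+ and 240.1, 234 and 214 in Ly49I+ replicates. Every Ly49G+ library lay above every Ly49I+ library for both kinases. The log2 differences of Ly49G+ minus Ly49I+ were 0.16 ± 0.08 (SE) for Jak1 (limma adjusted p = 0.261) and 0.16 ± 0.07 for Jak2 (adjusted p = 0.259), so neither passed. With quantile normalization the Jak1 difference was 0.06 (adjusted p = 0.661).

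Jak3 stood at 103, 90.9 and 101 CPM in Ly49G+ and at 81.5, 95.6 and 124 in Ly49I+ replicates 1, 2 and 3. The Ly49I+ libraries enclosed the whole Ly49G+ range, and the SD was 6.62 in Ly49G+ against 21.5 in Ly49I+. The log2 difference was -0.01 ± 0.13 (limma adjusted p = 0.980), and its sign turned when libraries were centred on their medians (0.01). Its 95% interval ran from -0.30 to 0.29, or 0.811-fold to 1.22-fold, the widest of the 9.

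Tyk2, which serves the IL-12 and type I interferon receptors, stood at 306, 297 and 301 CPM in Ly49G+ and at 337, 329.6 and 424 in Ly49I+ replicates. The Ly49G+ libraries were tight (301 ± 4.61, SD, n = 3), and every Ly49I+ library lay above them (363 ± 52.5). Ly49I+ replicate 3 stood well above the other Ly49I+ libraries. The log2 difference was -0.26 ± 0.10 (95% interval -0.47 to -0.05, limma adjusted p = 0.175). With the replicate number as a block Tyk2 passed (adjusted p = 0.0421), the only 1 of the 9 genes to do so. It did not pass with the block plus median centring, quantile normalization, no intensity trend, or any replicate number left out. Over all 21 alternatives its adjusted p ran from 0.0421 to 0.449. Without Ly49I+ replicate 3 the difference was -0.14 (adjusted p = 0.334).

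Stat4, the IL-12 response factor, stood at 575, 582 and 544 CPM in Ly49G+ and at 589, 514 and 519 in Ly49I+ replicates 1, 2 and 3. Ly49I+ replicate 1 held the highest value of all, so the groups overlapped (log2 difference 0.07 ± 0.08, limma adjusted p = 0.633). Without Ly49I+ replicate 1 the difference was 0.13, and without Ly49I+ replicate 2 it was 0.03. Stat3 stood at 284, 303 and 315 CPM in Ly49G+ and 307, 357 and 329 in Ly49I+ replicates. These overlapped too (-0.14 ± 0.08, adjusted p = 0.345, and -0.08 without Ly49I+ replicate 2). Stat6 stood at 318, 314 and 343.7 in Ly49G+ and 344.8, 381 and 376 in Ly49I+ replicates. Its groups lay apart only narrowly, and the difference of -0.18 ± 0.07 did not pass (adjusted p = 0.227, and 0.1003 with the block).

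Stat5a, which like Stat5b transmits IL-2, IL-7 and IL-15 signals, stood at 76.4, 78.0 and 84.8 CPM in Ly49G+ and 77.7, 87.6 and 90.9 in Ly49I+ replicates. For Stat5b the values were 105, 112 and 116 in Ly49G+ and 115, 129 and 141 in Ly49I+ replicates. Both pairs of groups overlapped, with the lowest Ly49I+ value each time in replicate 1. The log2 differences were -0.10 ± 0.09 for Stat5a (limma adjusted p = 0.542) and -0.20 ± 0.09 for Stat5b (adjusted p = 0.248, and 0.0795 with the block). Over all alternatives they ran from -0.16 to -0.05 and from -0.28 to -0.13. The ratio of Stat5b to Stat5a in CPM was 1.37, 1.44 and 1.37 in the Ly49G+ replicates and 1.48, 1.47 and 1.55 in the Ly49I+ replicates. All 3 Ly49I+ ratios lay above the Ly49G+ ratios. This was noticed in the data and has no test, and a read of the shared run, taken alone, could fall to either gene.

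**Figure D2:**
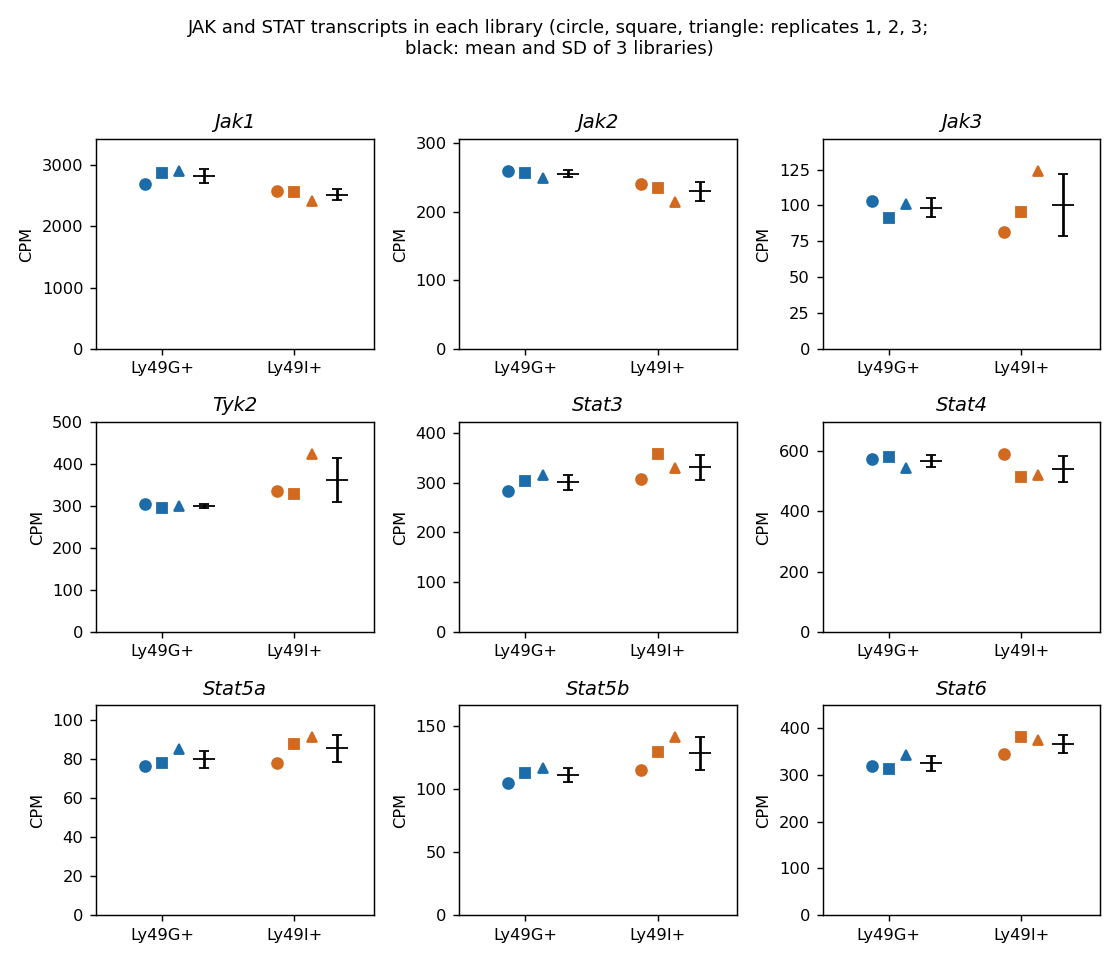
CPM of each gene in each library, with axes that start at 0. Circles, squares and triangles are replicates 1, 2 and 3, and black bars are the mean and SD of 3 libraries. The groups lie apart for Jak1, Jak2, Tyk2 and Stat6, and Ly49I+ replicate 3 holds the highest value of Jak3, Tyk2, Stat5a and Stat5b.

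Across the 9 genes 0 passed at an adjusted p of 0.05 in the limma test over all 8520 genes, against 3.59% of all genes. With limma's voom weights, which let the precision of each value follow its count, 0 passed as well. With the replicate block 1 passed, against 11.7% of all genes. Unadjusted p was under 0.05 for 3 of the 9, Tyk2, Stat5b and Stat6, and for 19.8% of all genes. The groups did not overlap for 4 of the 9, against 25.8% of all genes. Of these Jak1 and Jak2 had Ly49G+ above (12.5% of all genes) and Tyk2 and Stat6 had Ly49I+ above (13.4%). The median absolute log2 difference was 0.16 over the 9 genes and 0.13 over all genes. The smallest absolute difference called in any gene was 0.30, more than that of each of the 9.

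**Figure D3:**
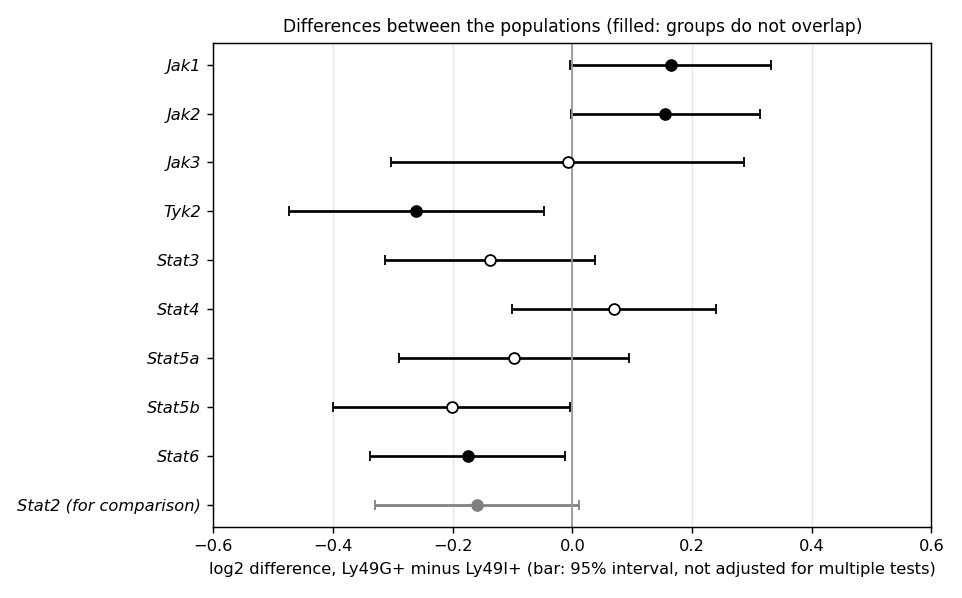
Log2 differences of Ly49G+ minus Ly49I+ libraries for the 9 genes, with Stat2 for comparison. Bars are 95% intervals from limma, not adjusted for multiple tests, and filled points mark groups that do not overlap. Tyk2, Stat5b and Stat6 have intervals that end below 0.

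Ly49I+ replicate 3 held the highest value of 4 of the 9 genes (Jak3, Tyk2, Stat5a and Stat5b) and the lowest of 2 (Jak1 and Jak2). Over all genes it was highest for 27.8% and lowest for 24.4%. Without it, none of the 9 genes passed, and the Jak3 difference became 0.15. Markers of other blood cells were measured as well. Every gene of the table reached at least 10 CPM in 2 or more libraries. A marker low in 1 population, such as Csf1r, could be listed only through the other, so its call was partly set by that floor. Of 22 listed myeloid and dendritic cell markers 11 were measured, and 8 were called higher in Ly49I+. The 11 summed to 1174 to 2109 CPM there against 1076 to 1192 in Ly49G+. Itgax, a large part of each sum, went the other way (1080 ± 41.7 CPM in Ly49G+, 901 ± 64.7 in Ly49I+, SD, n = 3 each). It was not called (limma adjusted p = 0.0985, and 0.0185 with the block). The other 10 were all lower in Ly49G+, among them Csf1r (3.97 ± 2.24 against 70.3 ± 58.8 CPM) and Lyz2 (14.1 ± 8.15 against 174 ± 154). The highest sum was in Ly49I+ replicate 2. Of 14 listed T cell markers 10 were measured, and 5 of these were higher in Ly49G+, with sums of 660.4 to 732 against 554 to 604 CPM. Most of each sum came from Cd247 (mean 249 CPM in Ly49G+ and 266 in Ly49I+), Trbc1 (131 and 113) and Cd28 (134 and 82.6). B cell markers (4 of 12 measured, 0 called) summed to 282 to 402 and 188 to 429 CPM. The 12 NK cell markers, all measured, summed to 15514 to 15843 and 15679 to 16066. Of the NK cell markers 2 were called, Eomes higher in Ly49G+ (limma adjusted p = 0.00893) and Tbx21 higher in Ly49I+ (0.0441). Of all genes 3.59% were called. With the replicate block 11 myeloid markers were called (10 higher in Ly49I+), 6 T cell, 1 B cell and 3 NK cell markers, against 11.7% of all genes. In such bulk samples fewer cells of a type and less RNA per cell cannot be told apart, and the part of these cells in the JAK and STAT values was not tested.

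Outside the 9, Stat2 and Irf9, which act on DNA together after type I interferon, did not pass either. Stat2 stood at 87.5 ± 5.51 CPM in Ly49G+ and 97.7 ± 2.37 in Ly49I+ (SD, n = 3 each), with all Ly49I+ libraries above (log2 difference -0.16 ± 0.08, limma adjusted p = 0.273). Irf9 was likewise not called (-0.11 ± 0.08, adjusted p = 0.458). Together with this pair, the pathway lists held 100 genes in 5 roles, of which 72 were measured. Of the 72, 5 were higher in Ly49G+ (1.82% of all genes were) and 3 were higher in Ly49I+ (1.77%), and their median log2 difference was -0.06, against -0.02 over all genes. With the replicate block 8 were higher in Ly49G+ (5.69% of all genes were) and 13 in Ly49I+ (5.96%). With the block and no intensity trend 8 were called in all.

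Receptors that signal through JAKs numbered 16 measured genes. Of these 3 rose in Ly49G+ (1.82% of all genes did), 0 in Ly49I+ (1.77%), and 13 stayed uncalled. The median over the 16 was -0.02 on the log2 scale. Il7r, the Jak1-bound chain of the IL-7 receptor, was 3.96-fold higher in Ly49G+ (limma adjusted p = 1.84e-05). It stood at 63.8, 89.0 and 72.0 CPM in Ly49G+ and 17.4, 20.2 and 18.6 in Ly49I+ replicates. Il21r, whose product acts mainly on Stat3, stood at 36.5, 37.95 and 36.1 against 21.9, 23.2 and 23.3 CPM (adjusted p = 0.00275). Il6st, the gp130 chain that also acts on Stat3, stood at 34.9, 41.6 and 33.2 against 19.95, 23.9 and 18.2 CPM (adjusted p = 0.00686, and 0.0546 without Ly49G+ replicate 2). All 3 receptor genes had fully separated groups. T cell marker sums were higher in Ly49G+ too, though Cd247, Trbc1 and Cd28, abundant in both populations, made up most of them. The sort took CD3-negative cells, and the part of T cells in the differences of the 3 receptor genes was not tested. Cd3e, a T cell marker named after its values were seen, stood at 9.26, 18.5 and 11.5 CPM in Ly49G+ and 0.577, 1.05 and 1.20 in Ly49I+. Cd3e, Cd3d and Trac lay under 10 CPM in every Ly49I+ library. They reached the floor of the table only through Ly49G+ libraries, so their direction was fixed by their being listed. Of the 10 T cell markers 7 had log2 differences above 0, of which 5 were called. Cd247, Lat and Icos went the other way and were not called (-0.09, -0.12 and -0.06).

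The chains that bind IL-15 overlapped between the populations. Il2rb, shared by the IL-2 and IL-15 receptors, stood at 2279 ± 192 CPM in Ly49G+ and 2158 ± 287 in Ly49I+ (SD, n = 3 each; limma adjusted p = 0.685). Il2rg, the common gamma chain that binds Jak3, stood at 538 ± 31.9 and 562 ± 29.5 (adjusted p = 0.660), and Il15ra at 11.9 ± 0.646 and 11.7 ± 1.33 (adjusted p = 0.950). A further 4 receptor genes, named after their values were seen, passed with the block and not without it. Over the alternatives Il4ra and Il12rb2 passed in 5 of 21, Il10ra in 6 of 21 and Csf2ra in 8 of 19, and with the block and no intensity trend Csf2ra alone of the 4 passed. With the block Il4ra, which signals to Stat6, was higher in Ly49G+ (log2 difference 0.40, adjusted p = 0.0117, and 0.0934 without the block). Il12rb2, the Jak2-bound IL-12 receptor chain that docks Stat4, was lower in Ly49G+ (-0.30, adjusted p = 0.0156, and 0.0761 without the block). Il10ra, whose product docks Stat3, was also lower (-0.26, adjusted p = 0.0170, and 0.0550 without the block). Csf2ra, the alpha chain of the GM-CSF receptor, stood at 6.16, 12.5 and 10.3 CPM in Ly49G+ and 15.6, 35.9 and 15.8 in Ly49I+, highest in the library with the highest myeloid marker sum (adjusted p = 0.000658 with the block, 0.0895 without). Ifngr1, the ligand-binding chain of the interferon gamma receptor, did not pass (-0.09 ± 0.09, adjusted p = 0.565).

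Inhibitors of the pathway had 0 of 19 measured genes past the test, against 3.59% of all genes, with 4 at an unadjusted p under 0.05 (19.8% of all genes) and a median log2 difference of -0.02. The phosphatase gene Ptprc (CD45) was the most abundant at 5989 ± 237 CPM in Ly49G+ and 5466 ± 377 in Ly49I+ (SD, n = 3 each; limma adjusted p = 0.411). The ubiquitin ligase genes Cbl and Cblb differed by -0.02 ± 0.08 and 0.03 ± 0.07 on the log2 scale, and the sign of Cbl turned with median centring (0.0001). With the block 1 inhibitor passed, Pias3, which encodes an inhibitor of Stat3 (-0.35, adjusted p = 0.0397, and 0.104 without the block). It passed in 4 of 20 alternatives. Adaptors and coactivators had 0 of 9 past the test and 0 at an unadjusted p under 0.05. The coactivator genes Crebbp, Ep300 and Ncoa1 differed by -0.10 ± 0.07, -0.13 ± 0.07 and -0.10 ± 0.07.

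Textbook STAT targets went both ways. Of 26 measured genes 2 were higher in Ly49G+ (1.82% of all genes were), 3 were higher in Ly49I+ (1.77%) and 21 were uncalled. Their median log2 difference was -0.14. Bcl2, a survival gene regulated by Stat5a and Stat5b, stood at 292, 311 and 283 CPM in Ly49G+ and 249, 230.4 and 229 in Ly49I+ replicates (1.25-fold higher in Ly49G+, limma adjusted p = 0.0368). Myc, a driver of growth, stood at 78.8, 70.7 and 95.2 against 48.2, 58.7 and 61.7 CPM (1.45-fold, adjusted p = 0.0442). Both had separated groups. Bcl2 kept its call in 1 of the 6 fits that leave out a library, and Myc in 2. Without the intensity trend neither passed (adjusted p = 0.0919 and 0.0928), and Myc did not pass with voom weights (0.0528) or with a minimum mean log2 CPM of 4 (0.0506) or 6 (0.0505).

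Gzmb, the granzyme B gene, stood at 609.8, 567 and 589 CPM in Ly49G+ and 770.1, 819 and 861 in Ly49I+ replicates (1.39-fold higher in Ly49I+, limma adjusted p = 0.00585, and 0.0569 without Ly49G+ replicate 2). Prf1, which encodes perforin, stood at 779.8, 751 and 845 against 986, 1075 and 1299.9 CPM (1.41-fold, adjusted p = 0.0253). Tbx21, which encodes T-bet, stood at 352, 361 and 385 against 452, 453 and 577 CPM (1.34-fold, adjusted p = 0.0441). In both Prf1 and Tbx21, Ly49I+ replicate 3 was highest, as in Tyk2. Myeloid marker sums were not highest in that library, and their part in the 3 genes that rose in Ly49I+ was not tested. Prf1 and Tbx21 each kept the call in 2 of the 6 fits that leave out a library. Without the intensity trend neither passed (adjusted p = 0.0691 and 0.101), and Tbx21 did not pass with a minimum mean log2 CPM of 4 (0.0503). Of the abundant targets that did not pass, Il18r1 differed by 0.13 ± 0.09, Ccnd2 by -0.14 ± 0.07 and Il18rap by -0.30 ± 0.07 (adjusted p = 0.0563, and 0.00958 with the block). With the block 4 targets were higher in Ly49G+ and 9 in Ly49I+, against 5.69% and 5.96% of all genes.

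**Figure D4:**
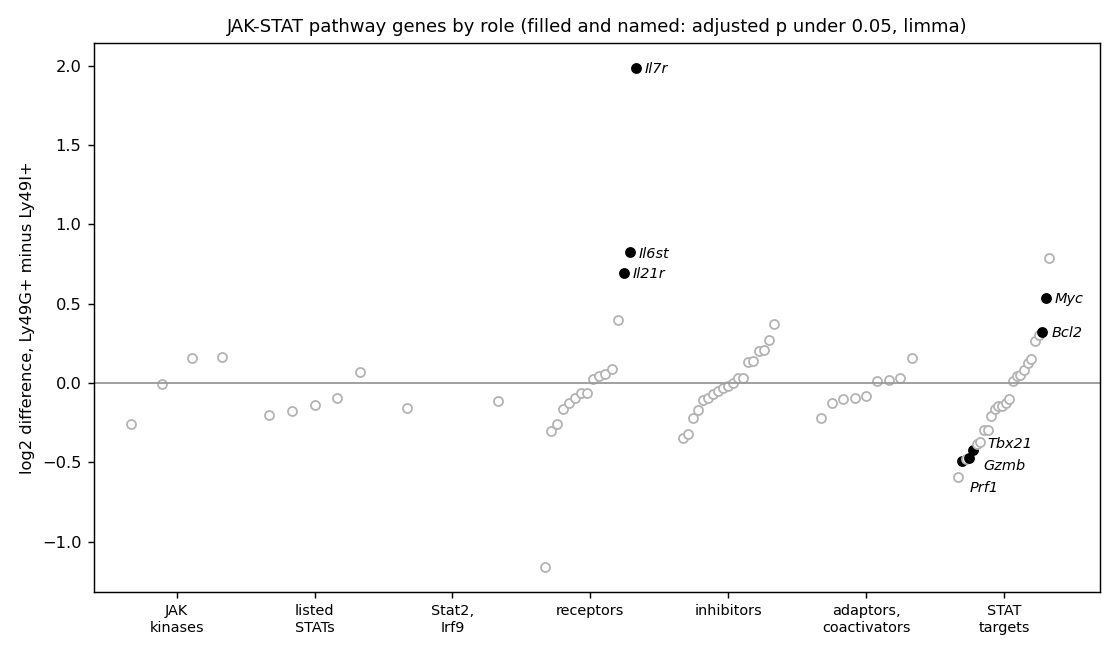
Log2 differences of Ly49G+ minus Ly49I+ libraries for the JAKs, the STATs and the measured genes of the other pathway roles, 1 point a gene, ordered by value within a role. Filled, named points passed at an adjusted p of 0.05 in limma. Called genes stand among the receptors and STAT targets, and the lone open point near -1.2 is Csf2ra.

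For Tyk2 and Stat6, the genes with the smallest p of the 9, the most similar patterns were sought over the 6 libraries by Pearson's r, as a description. The patterns closest to Tyk2 were those of Adamts14 (r = 0.998), Pwwp3a (0.998) and Esyt1 (0.997). None of these genes passed in the main fit (limma adjusted p = 0.181, 0.244 and 0.164). Esyt1 stood at 738, 734 and 741 CPM in Ly49G+ and 822, 819 and 1048 in Ly49I+ replicates, the same step up in Ly49I+ replicate 3. Closest to Stat6 were Sec14l1 (r = 0.997), Ppp2r5c (0.995) and Ndst2 (0.994), again not past the test (adjusted p = 0.102, 0.273 and 0.0819).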

How the data were processed

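Per the labels' protocols, stranded libraries were made from total RNA and sequenced on a HiSeq2000 in pairs of 100-base reads. The submitters' processing notes name CASAVA 1.8.2, STAR 2.3.0, limma and build mm10. No source used here names the counter, the annotation or the filter. The authors deposited log2 CPM for 8520 genes by NCBI gene number. The values follow the voom formula (0.5 added to each count, 1 to the total) with no scaling between libraries. Solving it gave whole reads for 100% of values within 0.001 read. Totals ran from 33599679 to 40892154 reads. Genes outside the table are not analysed here. RefSeq GRCm38.p6 named 8429 genes and GENCODE M21 1 more.

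The deposited log2 values were fitted with limma 3.58.1 in R 4.3.3: a linear model per gene, empirical Bayes with an intensity trend, two-sided, Benjamini-Hochberg adjustment over all 8520 genes, threshold 0.05. The steps were tested on simulated data. Printed CPM came from the solved reads without a pseudocount. Merged exon lengths are from GENCODE M21 basic. Same-numbered libraries deviated together across genes (r = 0.371, 0.114 and 0.156 for numbers 1, 2 and 3), so the numbers were taken as pairs and the replicate block is given where it changes a call. The labels do not say what a number marks, and Ly49G+ replicate 3 deviated more with Ly49I+ replicate 2 (r = 0.359) than with replicate 3, and Ly49G+ replicate 2 about equally with Ly49I+ replicates 1 (r = 0.115) and 2. No 2 replicates agreed within sampling noise. Python 3.11.15 with pandas 2.3.3 and matplotlib 3.10.9 made tables and plots.

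The members, the 12 lists and the tests were chosen with earlier results of these data known. Genes named are the 9, Stat2, per pathway list the called genes and the 3 most abundant others, the 3 patterns closest to each of the 2 lowest-p genes, and markers; others were named after their values were seen. Of the marker lists, the erythroid and platelet list had 0 of 10 genes measured. A further gene of the pathway is not reported here.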

Additional observations from a re-analysis of the deposited data

How the results depend on the processing

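The 9 genes were refitted under 21 alternatives, of which 6 join the replicate block to a second choice and were chosen after seeing the data. The count called among the 9 was 0 in 20 of them and 1 with the replicate block (Tyk2), which changed no other call of the 9. Directions held for 8 of the 9 genes in all 21. The Jak3 difference, near 0, ran from -0.15 to 0.15 without single libraries and turned with median centring (0.011, alone or with the block) and with the block without replicate 2 (0.025) or 3 (0.13). The Cbl difference ran from -0.089 to 0.043 without single libraries, and turned with centring (9.6e-05, alone or with the block) and with the block without replicate 1 (0.035). Cblb ran from -0.019 to 0.063 without single libraries and was -0.059 with the block without replicate 3. Il2rb ran from -0.031 to 0.15 and Il15ra from -0.071 to 0.091 without single libraries, and Il15ra was -0.032 with the block without replicate 1. The count over all genes was 306. It was 993 with the replicate block, 1020 with block and centring, 802 with block and quantile normalization, 376 with the block and no intensity trend, 741, 261 and 913 with the block without replicates 1, 2 and 3, 125 where the mean log2 CPM was at least 6, and 94 to 644 without single libraries (lowest without Ly49G+ replicate 2, highest without Ly49I+ replicate 1). The 8 called pathway genes became 21, 22, 17 and 8 in the first 4 of these, 17, 10 and 18 with the block without replicates 1, 2 and 3, 4 under the minimum of 6, 4 without the intensity trend, and 2 to 13 without single libraries. The minimum of 6 left fewer genes to test and removed Il7r, Il21r and Il6st, while Myc stayed and was not called. The cause of the changes in count was not tested.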
